A study of Mus musculus with 4 samples.

Results

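The genes described here are 10 feedback and response genes of NF-kB, namely the inhibitors Nfkbia, Nfkbie and Tnfaip3, the related nuclear factor Nfkbiz, the subunits Nfkb1, Nfkb2 and Relb, and the response genes Birc3, Icam1 and Tnf. They were listed by name, with earlier results of these data known, and all 10 were found among the 29835 genes of the joined matrices. Each was followed in ascites cells sorted by their own unique molecular identifiers (UMIs, 1 per captured transcript copy) into tumor, myeloid, T and B gates. Levels are given as CPM, the UMIs of a gene scaled to a common total of the UMIs summed over the gated cells of a library. Where 4 values follow each other without names, they stand in the order control, BTYNB, anti-PD-1, combination.

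Cells came from malignant ascites of C57BL/6 mice that had received ID8-Trp53-/- cells in the peritoneal cavity. ID8 is a mouse ovarian surface epithelial line, and the derivative used here lacks Trp53. Every group shares this graft, so a host with tumor but without either agent is the only baseline. After 7 days of engraftment, DMSO with the control antibody IgG2a (control), BTYNB with the control antibody (BTYNB), the PD-1 antibody RMP1-14 with DMSO (anti-PD-1) or BTYNB with RMP1-14 (combination) were given 2 times a week, until about 3 mL of ascites had formed. BTYNB is a small-molecule inhibitor of the RNA-binding protein Igf2bp1. The labels give 50 mg/kg of BTYNB and 100 ng of antibody per dose, and the methods state other amounts, which could not be settled here. Each group is 1 library of cells pooled over animals, so differences between groups carry counting error only, have no replicate check and were given no test. Contrasts that share a library are not independent of each other.

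NF-kB is a family of transcription factors that inhibitors of the IkB type hold in the cytoplasm until receptors for TNF, interleukin-1 or microbial products activate the IkB kinases. Freed dimers enter the nucleus and raise the transcription of their own brakes, among them Nfkbia, Nfkbie and Tnfaip3, together with genes for survival, adhesion and cytokines. In the peritoneal cavity the pathway is known for inflammatory signaling in macrophages and for chemokine production by epithelial tumor cells.

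The libraries differed in depth and in cell content. Between 7074 and 19247 cells were deposited per library, with 78603888 to 114600397 UMIs in total. The smallest deposited cell held 869 UMIs in BTYNB and 3533 to 5115 in the other libraries, and between 0 and 4 cell numbers were shared by any pair of libraries. After filtering, the tumor gate (a sum of at least 5 UMIs of Krt7, Krt8, Krt18, Krt19 and Wt1, and 0 of Ptprc) held 6775, 3545, 10397 and 4167 cells. The myeloid gate (at least 3 UMIs of Lyz2 and Csf1r, at most 2 keratin UMIs) held 286, 2942, 371 and 1233 cells. Of the tumor markers that the gate did not use, Upk3b lay at 456 to 643 CPM in tumor-gated cells and at 12.2 to 59.9 CPM in myeloid-gated cells. The macrophage gene Adgre1 lay at 0.262 to 0.737 CPM and at 115 to 160 CPM, respectively.

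The data went against the label of the T gate (at least 2 UMIs of Cd3d, Cd3e and Cd3g) and the B gate (at least 3 UMIs of Cd79a and Cd79b) in 2 libraries. In control and anti-PD-1, the T gate held 22 and 30 cells and the B gate 29 and 35, and Krt8 stood at 241 to 328 CPM there, near its 307 to 486 CPM in tumor-gated cells. These gates are not used as lymphocytes of those libraries. In combination, the T gate held 154 cells with 136 CPM of Krt8 and 1361 CPM of Lyz2, and the B gate 271 cells with 222 CPM of Krt8 and 989 CPM of Lyz2. In BTYNB the gates held 2274 and 3167 cells. T and B values are therefore given for BTYNB and combination only, also in cells with at most 2 keratin UMIs, fewer than 3 UMIs of Lyz2 and Csf1r and outside the other lymphocyte gate (purified gates), which left 2159 and 53 T cells and 2910 and 65 B cells.

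Promoter sequence shows which of the members carry the binding element of the factor next to their start. The RefSeq promoter windows (GRCm38.p6, 250 bases before to 50 bases after a start) included 7 of the 10 members with 10 windows, and Nfkbiz, Nfkb1 and Relb were not in the table. The kB consensus of 10 bases was searched on both strands. It was found in 6 of these 10 windows, belonging to Nfkbia, Nfkbie, Tnfaip3 and Nfkb2, and in 8.46% of all 32851 promoter windows. Nfkb2 accounts for 3 of the 6 windows, some of which overlap and hold the same element. By gene, 4 of the 7 members held a match. The members were listed as NF-kB genes, and these shares were given no test. The windows of Birc3, Icam1 and Tnf and the second window of Tnfaip3 held no match, which says only that these letters were absent there. The matches below show where elements of the feedback genes lie, with the match in capitals and the sequence written in the direction of the gene. For Nfkb2 they are a selection from 1 window, and its other windows held matches from 236 bases before to 10 bases after the start. The window of both Nfkb2 lines also holds a match that overlaps the first of them, shifted by 1 base.
Nfkbia, chr12:55492657-55492686, minus strand, match on the reverse strand, first base 29 bases before the start: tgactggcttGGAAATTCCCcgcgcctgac
Nfkbie, chr17:45555584-45555613, plus strand, match on the forward strand, first base 106 bases before the start: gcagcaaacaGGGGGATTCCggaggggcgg
Tnfaip3, chr10:19015516-19015545, minus strand, match on both strands, first base 125 bases before the start: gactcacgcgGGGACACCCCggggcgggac
Tnfaip3, chr10:19015403-19015432, minus strand, match on the reverse strand, first base 12 bases before the start: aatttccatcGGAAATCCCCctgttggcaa
Nfkb2, chr19:46304688-46304717, plus strand, match on both strands, first base 39 bases before the start: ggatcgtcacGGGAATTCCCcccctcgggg
Nfkb2, chr19:46304716-46304745, plus strand, match on the forward strand, first base 11 bases before the start: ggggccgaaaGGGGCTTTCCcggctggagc

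In tumor-gated cells, all 10 members had a log2 ratio above 0 for BTYNB against control, 8 of them with a counting interval above 0. The intervals of Nfkbie and Tnf included 0, and their signs turned under 4 and 5 of 14 alternative settings. Past 1.5-fold upward were 3 members, Nfkbia, Tnfaip3 and Nfkbiz, while 0 were 1.5-fold lower. Of the 12596 genes with at least 100 UMIs in 1 of both libraries, 3.3% were at least 1.5-fold higher and 3.27% at least 1.5-fold lower. The median log2 ratio of the members was 0.33, beside -0.01 over all these genes, and 9 of the 10 members passed the UMI minimum, all but Tnf. With anti-PD-1 present (combination against anti-PD-1), 9 members lay above 0, and 8 of these had a counting interval above 0. The share of all genes above 0 was not computed for either contrast. The median was 0.44, beside 0.05 over 12868 genes, and Tnfaip3 was past 1.5-fold upward and Tnf downward, with backgrounds of 4.37% and 5.61%. Anti-PD-1 against control had 5 members above 0, a median of -0.06 beside -0.07 over 12958 genes, and 1 member past 1.5-fold, Tnf, upward, with backgrounds of 5.76% higher and 3.17% lower. Combination against BTYNB had 0 members past 1.5-fold in either direction, with backgrounds of 0.309% higher and 0.244% lower. Ratios carry a pseudocount of 1 CPM unless stated otherwise, whereas the intervals printed beside them are those of the ratio without a pseudocount, so a low gene need not lie at the center of its interval.

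**Figure D1:**
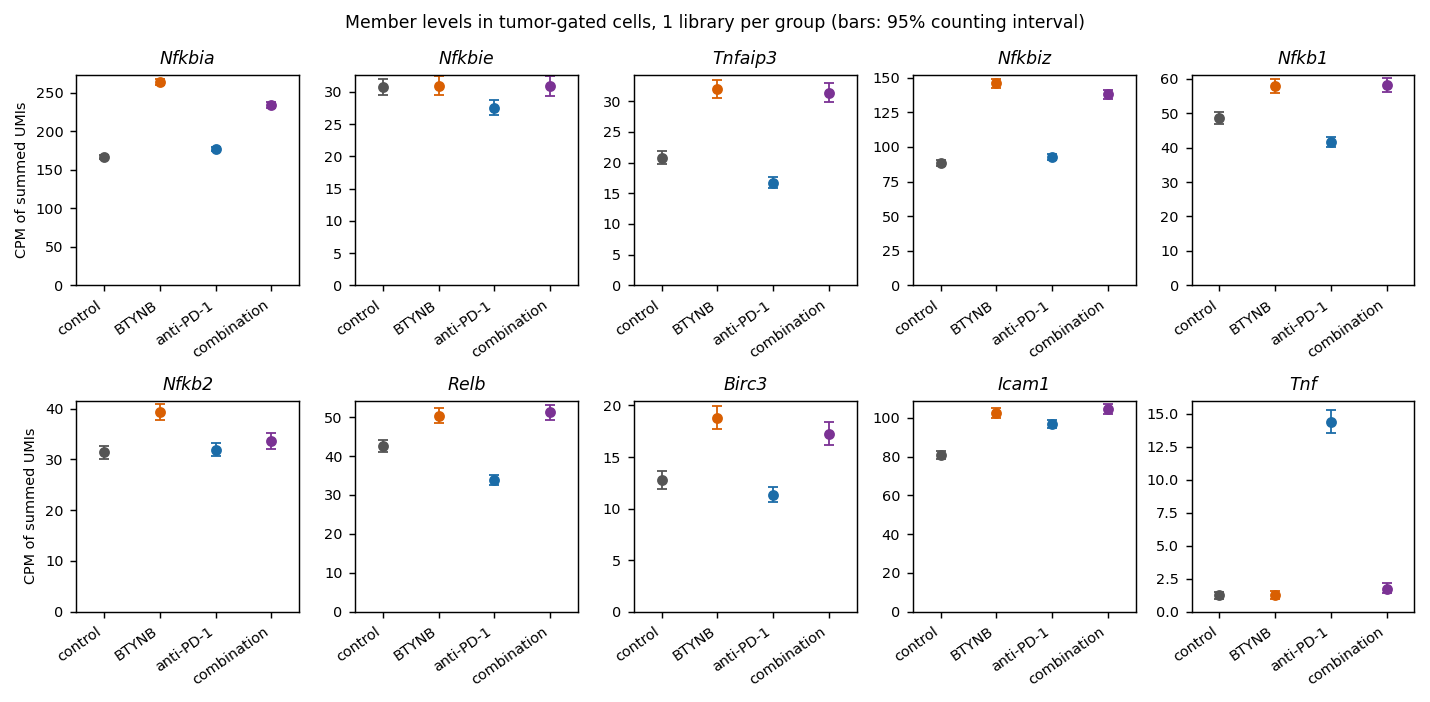
CPM of each member (vertical axis, from 0) in tumor-gated cells of the 4 libraries (horizontal axis), with 1 point per library and 95% Poisson intervals of the summed UMIs. For Nfkbia, Tnfaip3, Nfkbiz, Nfkb1, Relb and Birc3, the BTYNB and combination points lie above both other libraries. Tnf stands at 14.4 CPM in anti-PD-1 and at 1.23 to 1.74 CPM elsewhere.

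Among the inhibitors, Nfkbia, which encodes the IkB-alpha protein that returns NF-kB to the cytoplasm, stood in tumor-gated cells at 167 CPM in control (95% Poisson interval 164 to 170) and 177 in anti-PD-1 (174 to 180), beside 264 in BTYNB (260 to 268) and 234 in combination (230 to 238). Both libraries that had received BTYNB lay above both that had not. The log2 ratio was 0.66 for BTYNB against control (interval 0.63 to 0.70) and 0.40 with anti-PD-1 present (0.37 to 0.44). It lay between 0.62 and 0.70 for BTYNB against control under all alternatives run. After each cell had been thinned to 1000 UMIs, a UMI of Nfkbia was left in 14.98% of control and 15.9% of anti-PD-1 tumor-gated cells, and in 21.5% and 20.1% of those of BTYNB and combination, whereas the shares at full depth ran from 61.5% to 82.2%.

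Nfkbiz, which encodes a nuclear IkB that acts on the transcription of secondary response genes, was likewise higher in both libraries that had received BTYNB. Its level in tumor-gated cells was 88.2 CPM in control and 92.7 in anti-PD-1, beside 146 in BTYNB and 138 in combination. The log2 ratio was 0.72 for BTYNB against control (0.68 to 0.77) and 0.57 with anti-PD-1 present (0.53 to 0.62). The thinned share of cells with a UMI was 8.81%, 14.6%, 8.99% and 12.8%. Without cells with at least 5 UMIs of Cd24a, Gkn2 and Krtdap or at least 3 UMIs of Cxcl17, the first ratio of Nfkbiz was 0.56, which ends its call at 1.5-fold.

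Tnfaip3, which encodes the A20 enzyme that removes ubiquitin chains from receptor complexes, stood at 20.8 CPM in control (19.7 to 21.9) and 16.7 in anti-PD-1 (15.8 to 17.6), beside 32.0 in BTYNB (30.5 to 33.5) and 31.4 in combination (29.9 to 32.9). Neither interval of a BTYNB-treated library overlapped that of a library without BTYNB. The log2 ratio was 0.60 for BTYNB against control (0.52 to 0.72) and 0.87 with anti-PD-1 present (0.81 to 1.02), the highest of the members in that contrast. T cells carry far more of this transcript than tumor cells, so free RNA was estimated from T, B and myeloid markers in the tumor gate. The estimate for Tnfaip3 was 7.46% of its control and 10.7% of its anti-PD-1, beside 12.4% of its BTYNB and 18.6% of its combination UMIs. With it subtracted, the ratios were 0.52 and 0.74, and the first is then below 1.5-fold. In tumor-gated cells without a UMI of Lyz2, Csf1r, Cd3d, Cd3e, Cd3g, Cd79a and Cd79b they were 0.65 and 0.80.

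Nfkbie, which encodes IkB-epsilon, did not follow Nfkbia, Tnfaip3 and Nfkbiz. Its level lay at 30.8 CPM in control and 27.6 in anti-PD-1, beside 30.9 in BTYNB and 30.9 in combination. The intervals of control, BTYNB and combination overlapped, and the log2 ratio of BTYNB against control was 0.01 (-0.08 to 0.10). In cells of 5115 to 10000 UMIs, of which BTYNB had 422 among its 3545 tumor-gated cells, this ratio of Nfkbie was 0.56, and whether the depth or the cells kept set this value was not tested.

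With 1 CPM added, all 3 subunits stayed under 1.5-fold in both BTYNB contrasts. Without a pseudocount, Relb was just past 1.5-fold for combination against anti-PD-1. Nfkb1, which encodes p105 and p50, stood at 48.6 CPM in control and 41.6 in anti-PD-1, beside 57.8 in BTYNB and 58.1 in combination. Relb, the transactivating partner of p52 in the noncanonical branch, stood at 42.5, 50.4, 33.9 and 51.2 CPM. Nfkb2, which encodes p100 and p52, stood at 31.4, 39.3, 31.9 and 33.6 CPM. Nfkb1 and Relb were thus highest in the BTYNB and combination libraries and lowest in anti-PD-1, whereas Nfkb2 was apart from the rest in BTYNB alone. The ratios of BTYNB against control were 0.25 for Nfkb1, 0.24 for Relb and 0.32 for Nfkb2, and with anti-PD-1 present they were 0.47, 0.58 and 0.07. All but the last of these 6 have counting intervals above 0.

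Of the response genes, Birc3, which encodes the ubiquitin ligase cIAP2 that protects cells from death after TNF, stood at 12.7 CPM in control and 11.4 in anti-PD-1, beside 18.8 in BTYNB and 17.3 in combination. Its log2 ratio was 0.53 for BTYNB against control (0.43 to 0.69) and 0.56 with anti-PD-1 present (0.47 to 0.74), both just under 1.5-fold. Without a pseudocount, the ratio of Birc3 with anti-PD-1 present was just past 1.5-fold. Icam1, an adhesion receptor for leukocyte integrins, stood at 80.6, 102, 96.8 and 105 CPM. All 3 treated libraries lay above control for Icam1, with log2 ratios of 0.34 in BTYNB and 0.26 in anti-PD-1, and combination lay 0.11 above anti-PD-1.

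**Figure D2:**
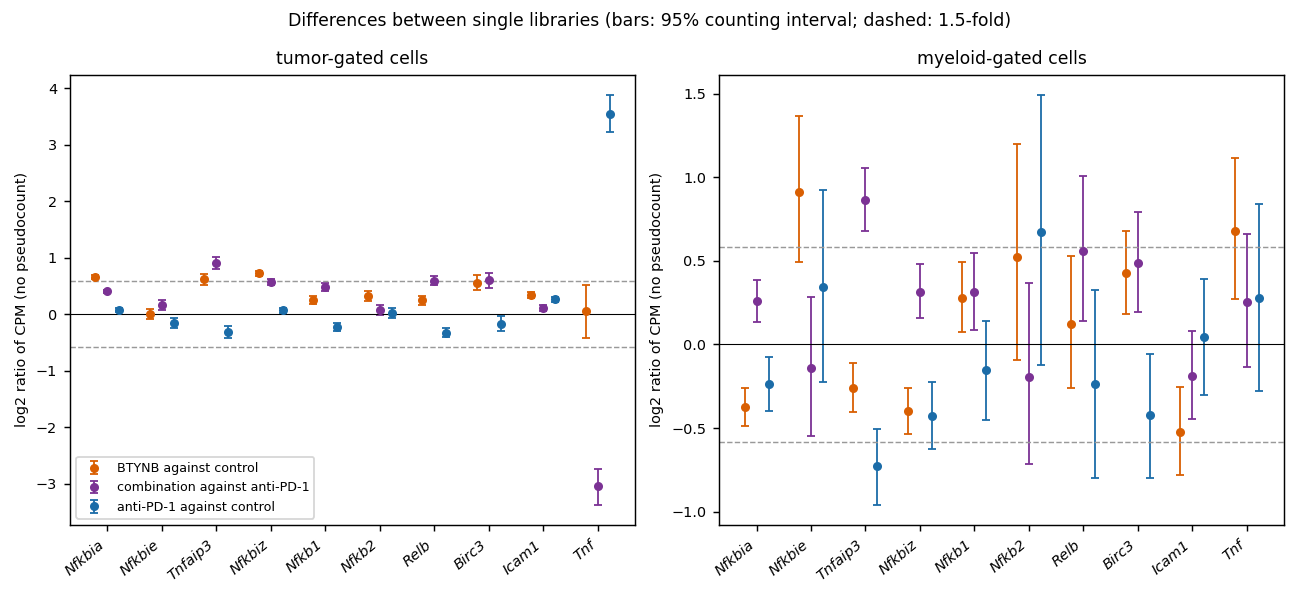
Log2 ratios of CPM without a pseudocount (vertical axis) for the 10 members (horizontal axis) in tumor-gated cells (left) and myeloid-gated cells (right). Points are differences between single libraries, bars are 95% counting intervals and dashed lines mark 1.5-fold. In the tumor gate, Tnf lies at 3.55 for anti-PD-1 against control and at -3.05 for combination against anti-PD-1. In the myeloid gate, Tnfaip3 lies at -0.26 for BTYNB against control and at 0.86 for combination against anti-PD-1.

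Tnf, the cytokine that both activates NF-kB and is induced by it, behaved unlike the other members in tumor-gated cells. It rested on 87 UMIs in control and 1127 in anti-PD-1, beside 73 in BTYNB and 93 in combination. Its level was 1.23 CPM in control (0.983 to 1.51) and 14.4 in anti-PD-1 (13.6 to 15.3), beside 1.27 in BTYNB (0.998 to 1.60) and 1.74 in combination (1.41 to 2.14). The anti-PD-1 library stood apart from the rest. Without a pseudocount, the log2 ratio of Tnf was 3.55 for anti-PD-1 against control (3.24 to 3.88), and with 1 CPM added it was 2.79. Combination against anti-PD-1 had -3.05 (-3.37 to -2.74) and -2.49, respectively.

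The Tnf UMIs of the anti-PD-1 library were concentrated in 1 kind of tumor-gated cell. Cells with at least 5 UMIs of Cd24a, Gkn2 and Krtdap, genes of a gastric-like tumor state, made up 2638 of its 10397 tumor-gated cells (25.4%) and held 995 of the 1127 Tnf UMIs (88.3%). The level in them was 40.7 CPM (38.2 to 43.3). It was 2.46 CPM in Cxcl17-high cells (at least 3 UMIs of Cxcl17, outside the first set) and 2.45 CPM in the 5932 cells of neither kind (1.99 to 2.99). In control, BTYNB and combination, cells above the same Cd24a limit numbered 454, 427 and 597, and Tnf stood there at 4.76, 2.74 and 3.91 CPM. Without Cd24a-sum-high and Cxcl17-high cells, the log2 ratio of Tnf for anti-PD-1 against control was 0.62.

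A sum of UMIs selects deep cells, and the median depth of Cd24a-sum-high cells was 9119 UMIs in anti-PD-1, 13787 in control, 26725 in BTYNB and 15798 in combination. Their marker levels differed as well. The summed level of Cd24a, Gkn2, Krtdap and Cxcl17 was 2800 CPM in anti-PD-1, 850 in control, 661 in BTYNB and 914 in combination. The limit therefore did not select cells of equal marker level in each library. After thinning to 1000 UMIs, 78 of 2638 of these anti-PD-1 cells (2.96%, exact binomial interval 2.34 to 3.68) kept a UMI of Tnf, against 23.6% at full depth. At full depth, the share was 5.73% in control, 5.39% in BTYNB and 5.53% in combination. The thinned share was 0 of 454 cells in control, which allows up to 0.809% by the exact interval, 0 of 427 in BTYNB, which allows up to 0.860%, and 2 of 597 in combination (0.335%). In the remaining tumor-gated cells of anti-PD-1 it was 0.245%. Myeloid-gated cells, which express the gene, had 2.45% to 4.85% after thinning. Markers of other cells were read in the same cells. Lyz2 stood at 25.2 CPM and Trbc2 at 0.450 CPM in the Cd24a-sum-high anti-PD-1 cells. The summed level of 5 dendritic cell markers was 144 CPM there, against 40.2 to 41.1 CPM in Cd24a-sum-high cells of the other libraries and 47.8 CPM in anti-PD-1 cells of neither kind. Of these, Ccr7, a chemokine receptor gene, stood at 117 CPM against 9.31 to 10.8 CPM, and Zbtb46 at 26.3 CPM against 28.7 to 30.6 CPM. The other dendritic cell markers of the list, Flt3, Xcr1 and Cd209a, lay at 0.286, 0.123 and 0.246 CPM. In tumor-gated cells without a leukocyte marker UMI the ratio of Tnf for anti-PD-1 against control was 2.71 with 1 CPM added, beside 2.79 in all tumor-gated cells.

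In anti-PD-1, most of the feedback genes were lower in these cells. Between Cd24a-sum-high cells and cells of neither kind in the anti-PD-1 library, 5 members were at least 1.5-fold lower (Tnfaip3, Nfkbiz, Nfkb1, Relb and Birc3) and Tnf was higher, with backgrounds of 24.3% and 9.93% of 11717 genes. Over all genes, lower ones were thus more common than higher ones here, and backgrounds were not computed for the other libraries. Tnfaip3 stood at 9.49 CPM (8.31 to 10.8) against 20.6 (19.2 to 22.0), a log2 ratio of -1.04. Relb stood at 21.2 against 38.9 CPM (-0.85), Nfkb1 at 27.5 against 50.6 (-0.86) and Birc3 at 6.75 against 13.8 (-0.93). Lower levels of Nfkbiz, Tnfaip3 and Nfkb1 in Cd24a-sum-high cells were not limited to anti-PD-1. The ratio of Nfkbiz was -0.67 there, beside -0.81 in control, -0.59 in BTYNB and -0.93 in combination. That of Tnfaip3 was -0.31, -0.72 and -0.51 in these 3 libraries, and that of Nfkb1 -0.42, -0.42 and -0.64. Relb had -0.05 (-0.25 to 0.14), -0.26 and -0.37 there, and Birc3 -0.11 (-0.47 to 0.23), -0.37 and -0.53. The control intervals of Relb and Birc3 thus include 0. Nfkbie went the other way in control (0.43) and combination (0.54), with 0.08 (-0.11 to 0.28) in BTYNB and -0.54 in anti-PD-1. The Cd24a-sum-high levels of Tnfaip3, Relb, Nfkb1 and Birc3 in anti-PD-1 were below those of cells above the same limit in each of the other libraries. There Tnfaip3 ran from 20.6 to 26.1 CPM, Relb from 40.1 to 45.6, Nfkb1 from 40.5 to 51.3 and Birc3 from 12.6 to 15.1. The part of the lower marker levels of those cells in this difference was not tested. Nfkbia had log2 ratios of 0.00, -0.24, -0.40 and -0.29 between both kinds of cell. Tnf was also higher in Cd24a-sum-high cells of the other libraries, with ratios of 1.36 in control, 0.75 in BTYNB and 0.96 in combination.

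**Figure D3:**
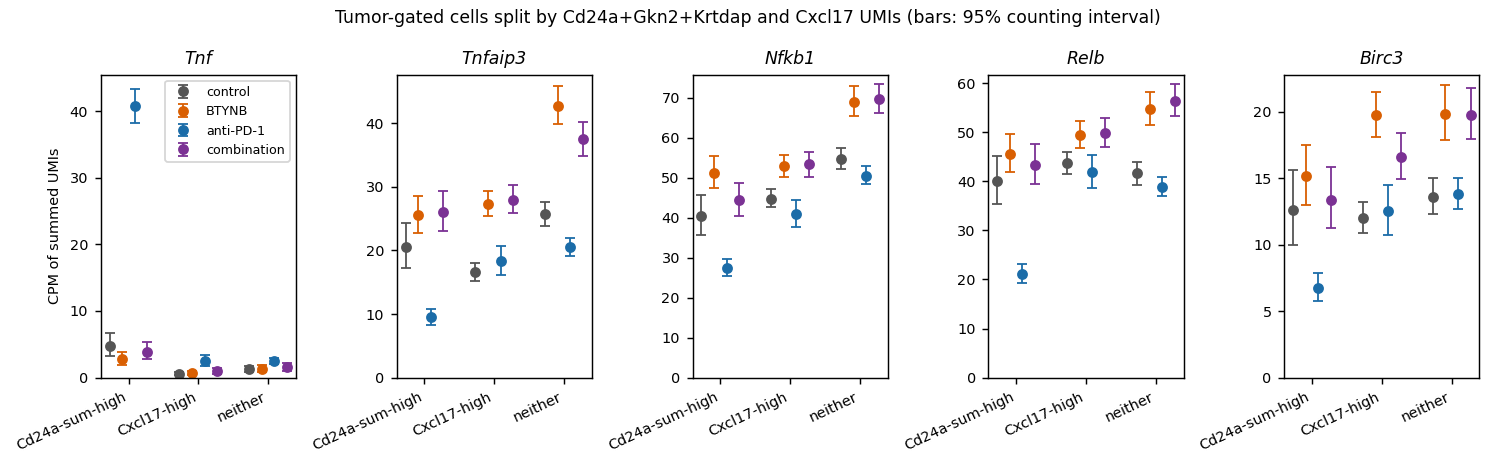
CPM (vertical axis, from 0) of Tnf, Tnfaip3, Nfkb1, Relb and Birc3 in 3 kinds of tumor-gated cell (horizontal axis), colored by library, with 95% Poisson intervals. In Cd24a-sum-high cells the anti-PD-1 point is the highest for Tnf (40.7 CPM) and the lowest for the other 4 genes. In cells of neither kind, BTYNB and combination lie above control and anti-PD-1 for Tnfaip3, Nfkb1, Relb and Birc3.

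The pattern after BTYNB was also seen in tumor-gated cells below both marker limits. These cells of neither kind still held 116 to 214 CPM of Cd24a, Gkn2, Krtdap and Cxcl17 in sum. In these, the log2 ratio of BTYNB against control was 0.62 for Nfkbia, 0.71 for Tnfaip3, 0.39 for Relb and 0.51 for Birc3, and with anti-PD-1 present it was 0.43, 0.84, 0.53 and 0.49. Tnfaip3 stood there at 25.7 CPM in control and 20.6 in anti-PD-1, beside 42.7 in BTYNB and 37.5 in combination. In Cd24a-sum-high cells, Tnfaip3 had a ratio of 0.30 for BTYNB against control and 1.37 with anti-PD-1 present.

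Other genes of the pathway were described from fixed lists. Unlike for the members, only listed genes with at least 100 UMIs in 1 library of a contrast were counted. In the tumor gate these were 14 of 15 receptors and adaptors and 7 of 7 kinases. Of them, 0 were past 1.5-fold in any of the 4 contrasts. Of 10 further subunits, inhibitors and feedback genes, 9 were counted for BTYNB against control, with 2 higher and 0 lower. All 10 were counted for combination against anti-PD-1, with 2 higher and 0 lower. Of 18 further response genes, 13 and 16 were counted in the same contrasts. Of these, 4 were higher and 0 lower, and 5 and 1, beside the backgrounds given above. Among the genes counted, those past 1.5-fold in both BTYNB contrasts were Rel, which encodes the c-Rel subunit, and the chemokine genes Ccl2, Cxcl1 and Cxcl5. Rel stood at 19.2 CPM in control and 14.5 in anti-PD-1, beside 29.3 in BTYNB and 29.5 in combination.

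Ccl2, which recruits monocytes, stood at 14.0, 27.0, 11.7 and 24.3 CPM. Cxcl1, which recruits neutrophils, stood at 68.7, 129, 42.9 and 112 CPM, with log2 ratios of 0.90 and 1.37. Cxcl5, another neutrophil chemokine gene, was low, at 0.917, 3.14, 0.792 and 2.27 CPM. For all 3 chemokine genes, both BTYNB-treated libraries lay above both others, and none of the pathway genes counted was past 1.5-fold in both anti-PD-1 contrasts.

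Immediate early genes, known to respond quickly to stimulation and to cell handling, moved with the same contrasts. Of 12 immediate early and dissociation genes, 11 passed the UMI minimum in both BTYNB contrasts of the tumor gate. Among these, 6 were at least 1.5-fold higher and 0 lower for BTYNB against control, with a median log2 ratio of 0.60. For combination against anti-PD-1, 3 were higher and 1 lower, with a median of 0.40. Their summed level was 7943 CPM in control and 7688 in anti-PD-1, beside 11358 in BTYNB and 10495 in combination, while that of the 10 members was 523, 743, 544 and 701 CPM. Atf3 had ratios of 0.91 and 1.18 and Jun 0.92 and 0.79. Median depth of tumor-gated cells was 9688, 15377, 7132 and 11503 UMIs. In cells of 5115 to 10000 UMIs, the ratios for BTYNB against control were 0.70 for Nfkbia, 0.53 for Tnfaip3 and 0.74 for Nfkbiz. The part of the immediate early genes in the result was not tested, and animal pool, processing and treatment cannot be told apart with 1 library per group.

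In myeloid-gated cells, the members showed another pattern. Nfkbia stood at 418 CPM in control (387 to 450) and 355 in anti-PD-1 (327 to 385), beside 322 in BTYNB (313 to 331) and 424 in combination (411 to 438). Control and combination overlapped for Nfkbia, and BTYNB was the lowest, with an interval that overlapped that of anti-PD-1. Nfkbiz stood at 293, 222, 218 and 272 CPM and Tnfaip3 at 258, 215, 155 and 283 CPM. For Tnfaip3 the anti-PD-1 interval (137 to 176) lay below those of the other libraries.

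Of the 10 members, 2 were at least 1.5-fold higher and 0 lower for BTYNB against control in the myeloid gate, with backgrounds of 12% and 13.4% of 9073 genes. These were Nfkbie, at 53.8 against 28.6 CPM, and Tnf, at 49.6 against 30.9 CPM. Anti-PD-1 against control had 1 higher, Nfkb2, on 36 and 23 UMIs and with an interval that includes 0, and 1 lower, Tnfaip3 (log2 ratio -0.73, interval -0.96 to -0.50), with backgrounds of 4.03% and 4.86%, and 6 members passed the UMI minimum. Combination against anti-PD-1 had 1 higher, Tnfaip3 (0.86, interval 0.68 to 1.06), and 0 lower, with backgrounds of 9.5% and 7.62%. Combination against BTYNB had 0 higher and 1 lower, Nfkbie (-0.69), with backgrounds of 6.19% and 4.16%. Shares of members this close to the background in the myeloid gate are not a result about the members as a set.

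The myeloid gate did not hold the same cells in each library. The monocyte gene Ly6c2 stood at 85.1 CPM in control and 43.5 in anti-PD-1, beside 516 in BTYNB and 118 in combination. The neutrophil gene S100a8 stood at 233, 855, 13.3 and 9.04 CPM, and the macrophage gene Retnla at 1420, 472, 314 and 1673 CPM. Keratin 8 ran from 8.34 CPM in BTYNB to 35.7 in anti-PD-1. In myeloid-gated cells with 0 keratin UMIs, Tnfaip3 had a log2 ratio of -0.42 for anti-PD-1 against control, which is under 1.5-fold. The part of this makeup in the differences was not tested.

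Levels by gate were set side by side within the BTYNB and combination libraries, with the purified T and B gates. Tnfaip3 stood in BTYNB at 1552 CPM in T cells, 229 in B cells, 215 in myeloid-gated and 32.0 in tumor-gated cells, where B and myeloid cells were close. In combination the order was 756 CPM in T cells, 283 in myeloid-gated, 258 in B and 31.4 in tumor-gated cells, and the intervals of B and myeloid cells overlapped. Nfkbia followed T over B over myeloid over tumor in BTYNB, at 898, 475, 322 and 264 CPM. In combination it stood at 588 CPM in T, 424 in myeloid, 314 in B and 234 in tumor cells.

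Birc3 was highest in B cells, at 632 CPM in BTYNB and 224 in combination, followed by T cells at 165 and 126 and myeloid-gated cells at 117 and 90.7. In combination the T value of Birc3 rested on 46 UMIs (92.5 to 169), and its interval overlapped that of myeloid-gated cells (84.8 to 97.0). Tumor-gated cells had 18.8 and 17.3 CPM of Birc3. Tnf was highest in myeloid-gated cells, at 49.6 CPM in BTYNB and 44.7 in combination, and T cells had 42.3 and 32.98 CPM with intervals that overlapped these. B cells had 8.10 and 12.2 CPM of Tnf, the latter on 5 UMIs. Nfkb2 and Icam1 were the only members for which the tumor level exceeded the myeloid level in both libraries by more than the counting intervals, apart from Relb in BTYNB.

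**Figure D4:**
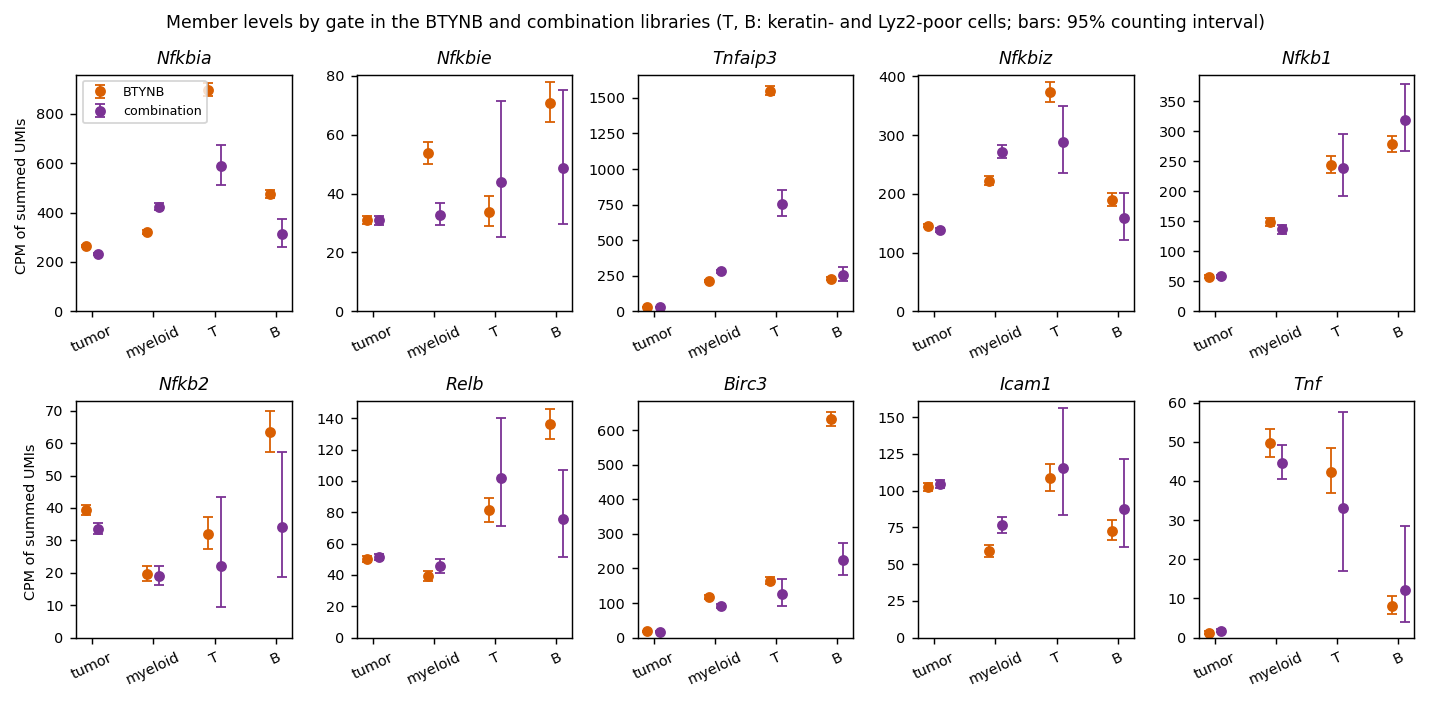
CPM (vertical axis, from 0) of each member in tumor, myeloid and purified T and B gates (horizontal axis) of the BTYNB and combination libraries, with 95% Poisson intervals. Tnfaip3 is highest in T cells (1552 and 756 CPM) and Birc3 in B cells (632 and 224 CPM), and both are lowest in tumor-gated cells.

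Differences between combination and BTYNB in the T and B gates were large and depended on which cells entered. In the T gate as defined, 5 members were at least 1.5-fold lower and 0 higher in combination, with backgrounds of 20.4% and 16.3%, and the log2 ratio of Tnfaip3 was -1.53. In the purified T gate, Tnfaip3 was at -1.04 (-1.22 to -0.86) and Nfkbia at -0.61, and Birc3 was at -0.38 with an interval that includes 0. In the B gate, 4 members were lower and 1 higher, with backgrounds of 20.4% and 9.83%. The latter was Tnf (0.87), on 31 and 61 UMIs, below the minimum of 100 UMIs behind that background. Birc3 was at -2.05 in the B gate, or at -1.49 (-1.81 to -1.20) in the purified gate. The ratio of Tnfaip3 in the B gate turned from -0.41 to 0.17 in the purified gate. Among gated cells with at least 5115 UMIs, the direction turned, and Tnfaip3 was at 0.20 in the T gate and Birc3 at 0.73 in the T and 0.83 in the B gate. Many of these deep cells carry markers of other types, since the purified gates remove 81 of the 166 cells in the BTYNB T gate and 227 of the 285 in the BTYNB B gate, and 101 of 154 and 206 of 271 in combination. Krt8 stood at 147 and 275 CPM in the deep BTYNB cells of the T and B gates. In the purified T gate, the summed dendritic markers were 170 CPM in BTYNB and 440 CPM in combination. Median depth was 2046.5 UMIs in the BTYNB T gate against 7500 in combination, and 1877 against 8179 in the B gate.

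Likeness of pattern was measured over the 12 library-by-gate values with at least 50 cells, as Pearson correlation of log2 CPM plus 1 among 13819 genes. These values share libraries and gates, so the coefficients are descriptions. The T and B gates entered as defined, not purified, and so with the mixed cells described above. The genes most like Nfkbia were Usp3 (0.97), Stk10 (0.96) and Madd (0.95), and those most like Tnfaip3 were Hcst (0.99), Tagap (0.98) and Hsd11b1 (0.98). Relb was most like Scaf8, Avl9 and Camsap2 (0.95 each) and Tnf most like Dok2 (0.97), Fxyd5 (0.96) and Galnt7 (0.95). Among the members, Nfkbia and Tnfaip3 had a coefficient of 0.96, and Icam1 and Nfkbie one of -0.58.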

How the data were processed

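The authors captured cells on the BD Rhapsody HT platform, processed the reads with the vendor's pipeline (build GRCm39 per the submitters' processing notes) and deposited raw UMI counts, 1 matrix per library. No deposited column was without a sample (0 unassigned). Cells with fewer than 200 genes or over 33% mitochondrial UMIs were removed, the cut-offs named in the methods of the study. Mitochondrial UMIs were counted here over genes whose symbol starts with mt-. The study defined mitochondrial genes by the MitoCarta list, so the filters are not the same. Doublets were scored with scrublet (scanpy 1.11.5), whose own threshold marked 0.0128% to 2.61% of cells. The top 5% of scores were therefore removed in each library, which left 7443, 17369, 11419 and 6690 cells (control, BTYNB, anti-PD-1, combination). Gates were the sums of UMIs stated in the text. Summed counts were scaled to CPM, with exact Poisson intervals for levels and exact binomial intervals for shares and ratios (scipy 1.17.1) at the 95% level, all covering counting error only. A member was called past 1.5-fold, with 1 CPM added, in contrasts with at least 50 gated cells per library. Free RNA was estimated from the marker levels of T, B and myeloid cells in the tumor gate. The ratio calculation was tested on simulated data. The 10 members and all lists were chosen with earlier results of these data known. All members were named. From each pathway list, genes past the UMI minimum and past 1.5-fold in the same direction in both contrasts of an agent were named, at most 4. For 4 members the 3 genes of highest correlation were named. Alternatives changed doublets, gates, depth, scaling, pseudocount, fold and UMI minimum.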

Additional observations from a re-analysis of the deposited data

Results flagged for a closer look

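Some members moved in opposite directions in tumor-gated and myeloid-gated cells under the same contrast, with both counting intervals apart from 0. For BTYNB against control, the log2 ratio in tumor-gated cells minus that in myeloid-gated cells was 1.03 for Nfkbia (0.66 against -0.37), 0.86 for Tnfaip3 (0.60 against -0.26), 1.12 for Nfkbiz (0.72 against -0.40) and 0.86 for Icam1 (0.34 against -0.51). The myeloid ratio of Tnfaip3 turned to 0.13 with the common floor of 5115 UMIs and to 0.12 in the depth window. For anti-PD-1 against control, the same difference was 0.32 for Nfkbia and 0.50 for Nfkbiz. The tumor ratio of Nfkbiz behind the latter was 0.07, and it turned to -0.25 in the depth window and to -0.020 without Cd24a-sum-high and Cxcl17-high cells. For combination against BTYNB the difference between the gates was -0.57 for Nfkbia and -0.37 for Nfkbiz. With 1 library per group none of these differences was tested, and the makeup of the myeloid gate differed between the libraries.

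Some effects also turned with the presence of the other agent. In myeloid-gated cells the log2 ratio for BTYNB with anti-PD-1 minus that without was 0.63 for Nfkbia, 1.12 for Tnfaip3 and 0.71 for Nfkbiz. These 3 values hold for anti-PD-1 with and without BTYNB as well, since they use the same 4 levels. For Tnfaip3 both effects of BTYNB were above 0 with the common floor. In tumor-gated cells, the ratio for anti-PD-1 with BTYNB minus that without was -0.26 for Nfkbia and -0.15 for Nfkbiz, the latter resting on the ratio of 0.07 that turned. These differences were not tested either.

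Cells that passed no gate were outside the comparisons. The summed level of the 10 members in them was 686 CPM in control (369 cells), 2086 CPM in BTYNB (5713 cells), 640 CPM in anti-PD-1 (634 cells) and 1241 CPM in combination (1075 cells). BTYNB and combination thus lay more than 1.5-fold above control. Median depth of these cells was 7171, 1771, 5400 and 7289 UMIs, and the T cell gene Trbc2 stood in them at 2.57, 101, 4.90 and 6.65 CPM and the dendritic cell gene Flt3 at 21.9, 103, 13.7 and 121 CPM.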

How the results depend on the processing

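No paired analysis was possible because each group is 1 library and the labels carry no replicate numbers. Of 560 log2 ratios of members recomputed in tumor-gated cells, 451 stayed within the counting error of the value reported and 109 moved beyond it, and of 520 in myeloid-gated cells 487 and 33 did so. None of these that had passed 1.5-fold with an interval apart from 0 changed direction. Few UMIs lie behind the myeloid-gated cells of control and anti-PD-1, and in the lymphocyte gates depth moved with other cells: the summed tumor markers of the BTYNB B gate were 1787 CPM, and 335 CPM after purification. Causes of the changes were not tested beyond the fewer cells that each setting keeps. The depth window, the purified gates, the subtraction of free RNA and the settings without Cd24a-sum-high cells alone, without neutrophil markers and with C1q were chosen after seeing the data.

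Counts of members past 1.5-fold changed as follows in tumor-gated cells. For BTYNB against control, 3 higher became 5 with the mean over cells and 0 at a fold of 2, and also 4 without Cd24a-sum-high cells and 2 without Cd24a-sum-high and Cxcl17-high cells, with free RNA subtracted, in the depth window or with a pseudocount of 10 CPM. For combination against anti-PD-1, 1 higher became 3 without a pseudocount, 2 with the mean over cells or in cells of 1 gate alone, 4 with a common floor of 5115 UMIs, in the depth window or without leukocyte marker UMIs, and 0 at a fold of 2, and 1 lower became 0 without Cd24a-sum-high and Cxcl17-high cells. For combination against BTYNB, 0 lower became 1 in the depth window.

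In myeloid-gated cells, 2 higher for BTYNB against control became 1 with a pseudocount of 10 CPM and 0 at a fold of 2. For anti-PD-1 against control, 1 higher became 0 with a pseudocount of 10 CPM, with the mean over cells and at a fold of 2, and 1 lower became 3 with the common floor, 4 in the depth window, 0 without keratin UMIs and 0 at a fold of 2. For combination against anti-PD-1, 1 higher became 6 with the common floor or in the depth window and 0 at a fold of 2. For combination against BTYNB, 1 lower became 0 with a pseudocount of 10 CPM or at a fold of 2, and 2 with the mean over cells.

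For combination against BTYNB in the T gate, 0 higher became 2 with the common floor and 1 in the depth window, and 5 lower became 1 with either of these and 2 in the purified gate or at a fold of 2. In the B gate, 1 higher became 4 with the common floor and 0 with a pseudocount of 10 CPM, without doublet removal, in cells of 1 gate alone, in the depth window, in the purified gate and at a fold of 2, and 4 lower became 0 with the common floor or in the depth window and 1 at a fold of 2.

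Of the ratios past 1.5-fold with an interval apart from 0, those that changed direction were all in the T and B gates, whose cells over the common floor are in large part cells that the purified gates remove. With the common floor, the T gate had 0.057 for Nfkbia, 0.20 for Tnfaip3, 0.10 for Nfkb1 and 0.73 for Birc3, and the B gate 0.60 for Nfkb1, 0.0099 for Relb and 0.83 for Birc3. In the depth window, Birc3 was at 0.23 in the T gate, and Nfkb1 at 0.020, Nfkb2 at 0.037 and Relb at 0.53 in the B gate. In the purified B gate Nfkb1 was at 0.19, and in the B gate without cells of other gates Tnf was at -0.35. Smaller ratios changed sign in all gates. Of those not called but with an interval apart from 0, 4 of 23 did so under at least 1 setting in tumor-gated cells, 1 of 21 in myeloid-gated cells, 2 of 2 in the T gate and 1 of 3 in the B gate. For anti-PD-1 against control in the tumor gate these were Nfkbie, Nfkbiz and Birc3, and for combination against anti-PD-1 Nfkbie. In the myeloid gate it was Tnfaip3 for BTYNB against control, and in the lymphocyte gates Nfkbiz and Icam1 (T) and Tnfaip3 (B, 0.79 with the common floor).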
